A study of Mus musculus with 6 samples.

Results

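Penk and Nrn1 are 2 of the 14098 genes in a table of single regulatory T (Treg) cells from mouse spleen, and they were selected on their expression, because both were among the leading genes of Treg clusters in these same cells. Penk encodes proenkephalin, the precursor that is cut into the enkephalins, short peptides that act on opioid receptors. Nrn1 encodes neuritin, a small protein held on the cell surface by a lipid anchor and first described as a neuronal growth factor induced by activity. Neuritin is not itself cut into peptide transmitters. Both genes are best known from the nervous system, and both have also been described in CD4 T cells: Penk after activation and in Treg cells, Nrn1 in anergic and in regulatory cells.

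Treg cells are CD4 T cells that carry the factor Foxp3 and restrain other lymphocytes. The study compared 3 cKO samples, from Bach2fl/fl Foxp3EGFP-Cre-ERT2 mice, with 3 WT samples, from Bach2+/+ Foxp3EGFP-Cre-ERT2 mice. All donors were C57BL/6, aged 18 to 21 weeks, and all received tamoxifen, so the WT mice carried the same inducible Cre and EGFP reporter from the Foxp3 locus and the same drug. Cells were sorted as EGFP-positive, so the sort held Foxp3-reporter cells whether or not Bach2 had been deleted in them. Bach2 encodes a transcriptional repressor of lymphocytes. Transcripts were counted as unique molecular identifiers (UMIs) by droplet-based 3′ sequencing, and levels are given in CPM, the UMIs of a gene per 1000000 UMIs of the same cells.

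The table held 10685 cells, whose barcodes end in a suffix from 1 to 6. Each of these 6 sets had 1641 to 1902 cells, the UMIs of a set came to 3998172 to 4786590, and the median depth of a cell ran from 2000 to 2229 UMIs. No column name tied a set to a sample. The sets are therefore called 1 to 6 after the suffix, none has a genotype here, and cKO was not compared with WT. Of the cells kept, 10554 were taken as Treg cells, all those outside the clusters of other cell types, and 92 B cell-like and 34 myeloid-like cells served as cells that should lack the transcripts under study. Free RNA in the droplets and doublets were not separated as sources of their UMIs. Foxp3 was at 21.2 CPM in the Treg cells (19.5 to 23.1) and at 8.84 CPM in those other cells (1.82 to 25.8), and Ikzf2, which encodes the Treg factor Helios, at 1021 CPM (1009 to 1034) and 318 CPM (261 to 384). The study had replicates of cKO and WT, but the sets could not be assigned to them, so no test was made. Intervals are given at 95% and describe counting error, not the spread between mice. The 6 sets shared 63 barcodes, and 5 of the cells rich in Penk and 1 of those rich in Nrn1, as defined below, had such a barcode.

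In the GENCODE vM21 annotation of mm10, Penk (ENSMUSG00000045573.9, protein coding) lies on chromosome 4 from 4133531 to 4138819 on the minus strand, and its principal transcript has 2 exons. Nrn1 (ENSMUSG00000039114.16, protein coding) lies on chromosome 13 from 36725361 to 36735131, also on the minus strand, with 3 exons in its principal transcript. Penk overlaps A830012C17Rik, and Nrn1 overlaps Fars2 and Gm30177, all on the opposite strand. The sources used here do not say whether the counting used strand, so UMIs of these overlaps could not be assigned by strand.

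A small number of cells held most of the Penk transcripts. Over all Treg cells there were 2236 Penk UMIs, 89.3 CPM (85.6 to 93.1). Of the 10554 Treg cells, 9517 had none, 731 had 1, 108 had 2 and 198 had 3 to 23. These 198 cells, called Penk-high below, were 1.88% of Treg cells (1.63 to 2.15%) and held 57.6% of the Penk UMIs. The 37 cells with 10 UMIs or more held 22.4% by themselves. Outside the Penk-high cells the level was 38.8 CPM (36.3 to 41.3). In the B cell-like plus myeloid-like cells, leaving out their own Penk-high cell, it was 44.7 CPM (25.01 to 73.7) on only 15 UMIs, so these levels could not be told apart at this depth.

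With every cell thinned to 1000 UMIs, 568 of 10248 Treg cells (5.54%, 5.11 to 6.00%) had a Penk UMI, against 3 of 117 cells of the B cell-like or myeloid-like clusters (2.56%, 0.53 to 7.31%). Unthinned, 9.83% of Treg cells and 11.9% of those other cells had one, with a median depth of 2092 UMIs in the former and 2021.5 UMIs in the latter. Because the thinned intervals overlap, the share of cells with a Penk UMI could not be told apart from that in these other cells. Among these other cells 1 of 126 was Penk-high (0.794%, 0.020 to 4.34%), an interval that also includes the Treg share.

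Nrn1 was spread more thinly, with 861 UMIs in Treg cells, 34.4 CPM (32.1 to 36.8). Of the Treg cells 9940 had no Nrn1 UMI, 482 had 1, 86 had 2 and 46 had 3 or more, with a maximum of 17. The 132 cells with at least 2 UMIs, called Nrn1-high below, were 1.25% of Treg cells (1.05 to 1.48%) and held 44.0% of the Nrn1 UMIs. Among the same 126 cells, Nrn1 was detected in 1 B cell-like cell, with 3 UMIs, and 0 of the 34 myeloid-like cells had any. Thinned to 1000 UMIs, 2.81% of Treg cells (2.50 to 3.15%) and 1 of 117 of these other cells (0.855%, 0.022 to 4.67%) had a Nrn1 UMI. Outside the Nrn1-high cells the Treg level was 19.6 CPM. The limits of 3 and 2 UMIs were chosen after the distributions had been seen, and the cells next to the limit were 108 with 2 and 49 with 3 Penk UMIs, and 482 with 1 and 86 with 2 Nrn1 UMIs.

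**Figure D1:**
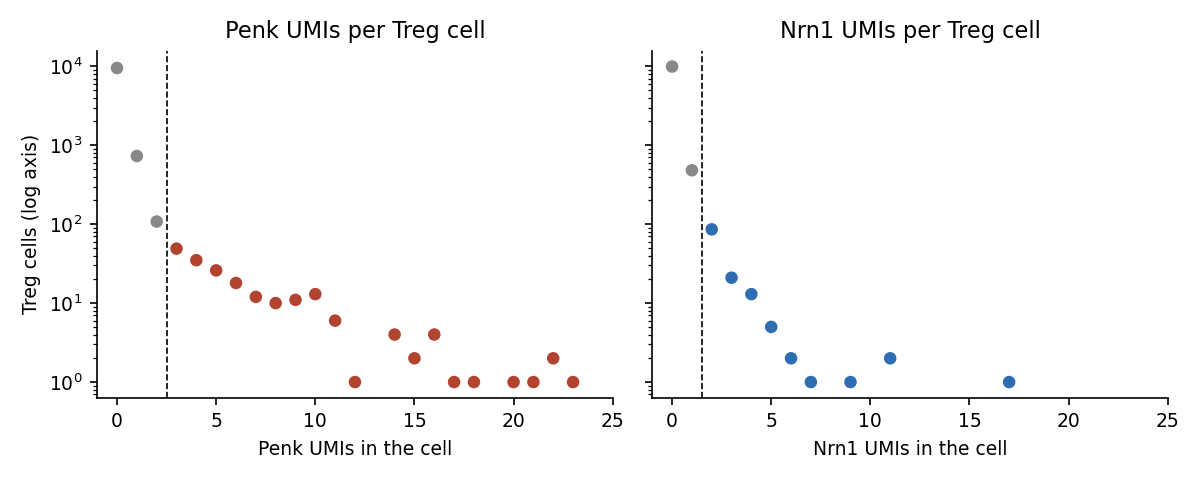
Number of Treg cells (log axis) by the number of Penk UMIs (left) or Nrn1 UMIs (right) in the cell. Coloured points are the 198 Penk-high and the 132 Nrn1-high cells, to the right of the dashed lines. The Penk distribution runs on to 23 UMIs and that of Nrn1 to 17.

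Penk levels differed between sets. The level in Treg cells was 119.7 CPM in set 1 (110.0 to 130.0), 77.1 CPM in set 2, 85.6 CPM in set 3, 82.5 CPM in set 4, 71.0 CPM in set 5 and 94.3 CPM in set 6. Set 1 lay above the others, with a Poisson interval that met none of theirs. From highest to lowest the CPM order was set 1, 6, 3, 4, 2 and 5, and the Poisson intervals of each pair of neighbours below set 1 overlapped. These intervals treat UMIs as independent, while 10 cells held 24.9% of the Penk UMIs of set 1. By cells, the intervals of set 1 overlapped those of several other sets. The thinned share with a Penk UMI was 7.38% (6.23 to 8.67%) in set 1 and 5.71% (4.62 to 6.96%) in set 6. The intervals of sets 3 and 4 reached 6.48% and 6.70% and also overlapped that of set 1. The Penk-high share was 2.83% (2.13 to 3.68%) in set 1 and 2.28% (1.61 to 3.13%) in set 6. Its intervals in sets 3, 4 and 5 reached 2.42%, 2.34% and 2.23%, again overlapping set 1. Set 2 lay below set 1 without overlap on both measures, and set 5 on the thinned share only. The sets held 53, 22, 31, 29, 26 and 37 Penk-high cells. Without those cells the levels ran from 34.6 CPM in set 5 to 45.6 CPM in set 1. Each remaining cell holds at most 2 Penk UMIs, so the narrower range follows in part from the definition.

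The share of Treg cells in the Il1r2 cluster described below also differed between sets, and its part in the Penk levels was not tested. It was 17.2% in set 1, 12.2% in set 2, 11.6% in set 3, 15.3% in set 4, 12.8% in set 5 and 16.6% in set 6. Within that cluster the Penk level was 301 CPM in set 1, 312 in set 2, 331 in set 3, 198 in set 4, 189 in set 5 and 241 in set 6. Set 1 was therefore not the highest inside the cluster. In the Treg cells outside it, set 1 was highest with 75.3 CPM, and the other sets had 38.1 to 57.0 CPM.

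The Nrn1 level was 37.1 CPM in set 1, 34.2 CPM in set 2, 28.3 CPM in set 3, 41.4 CPM in set 4, 24.0 CPM in set 5 and 40.5 CPM in set 6. Set 4 was highest and set 5 lowest, and the Poisson interval of set 5 (19.4 to 29.4 CPM) lay below those of sets 1, 4 and 6. Neighbours in this order, which runs 4, 6, 1, 2, 3 and 5, had overlapping Poisson intervals. By cells, the thinned share with a Nrn1 UMI in set 5, 2.49% (1.79 to 3.36%), overlapped those of sets 1 (2.16 to 3.74%), 4 (2.90 to 4.74%) and 6 (2.07 to 3.76%). Its Nrn1-high share (0.364 to 1.23%) overlapped those of sets 1 and 4 but not that of set 6 (1.30 to 2.70%). Nrn1-high cells numbered 31, 20, 16, 22, 12 and 31. Set 4 reached its level with fewer such cells than sets 1 and 6, and its level outside Nrn1-high cells, 25.9 CPM, was above the 17.1 to 19.3 CPM of the other sets.

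**Figure D2:**
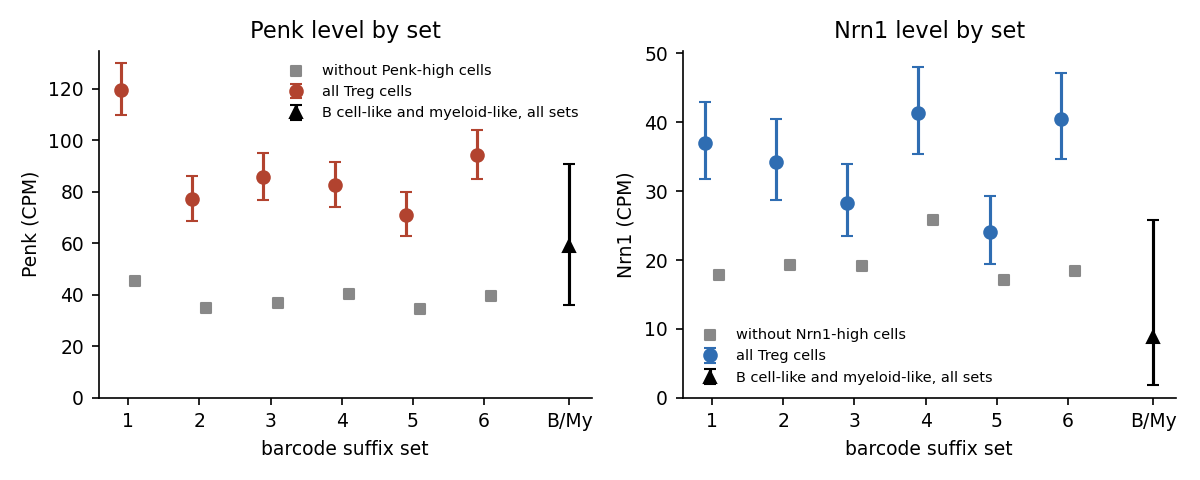
Penk (left) and Nrn1 (right) in CPM by barcode suffix set. Circles with 95% Poisson intervals are all Treg cells, grey squares the Treg cells without the high cells, and the triangle the non-T clusters (B/My, B cell-like or myeloid-like) over all sets. Set 1 stands highest for Penk at 119.7 CPM, and without high cells the Penk levels lie between 34.6 and 45.6 CPM.

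Both genes had their highest level in 1 cluster of activated Treg-like cells at the resolution used, which for Penk did not hold at a finer one. Clusters were drawn without Penk, Nrn1 or Bach2 among the genes used. Since both were chosen as leaders of clusters of these cells, their levels by cluster are a description. The cluster led by Il1r2, Bcl2a1d and Tnfrsf9, here the Il1r2 cluster, held 1507 cells. Il1r2 encodes the decoy receptor for interleukin-1, and Tnfrsf9 the costimulatory receptor 4-1BB.

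Penk stood at 260 CPM in the Il1r2 cluster (245 to 276) and was highest there in 6 of 6 sets, among 9 clusters of 50 cells or more. This cluster held 48.6% of all Penk UMIs and 62.3% of the Penk-high cells, the 1 B cell-like one included in the total. A cluster of 1177 activated Treg-like cells led by the chemokine gene Ccl5, Fgl2 and Cxcr6 had 108 CPM (95.3 to 122). An unnamed cluster of 2503 cells led by Dnah7a, Sh2d1a and Tbc1d4 had 87.1 CPM (78.8 to 96.1). The other Treg clusters were at or below the 58.9 CPM of B cell-like plus myeloid-like cells (36.0 to 91.0). They included the 1733 activated Treg-like cells led by S100a4, Ccr2 and S100a6 with 36.2 CPM and the 2681 resting Treg-like cells led by Igfbp4, Ly6c1 and Satb1 with 29.8 CPM.

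The activated Treg-like clusters thus differed among themselves, with 124 Penk-high cells in the Il1r2 cluster, 24 in that led by Ccl5 and 1 in that led by S100a4. Within the Il1r2 cluster, 8.23% of cells (6.89 to 9.73%) were Penk-high. The remaining cells of that cluster had 61.6 CPM of Penk, against 44.7 CPM in the non-T cells without their Penk-high cell (25.01 to 73.7).

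These figures depend on how finely the cells were split. At a coarser resolution of 0.5, the cluster led by Nfkbid, Egr2 and Il1r2 (494 cells) was highest at 192 CPM but held 13.7% of Penk UMIs and 39 Penk-high cells. A cluster of 4858 cells led by Lag3, Ccl5 and Cst7 then held 65.8% of Penk UMIs, 145 Penk-high cells and 60.8% of Nrn1 UMIs, at 146 CPM of Penk. At a finer resolution of 1.2, an unnamed cluster of 584 cells led by D830030K20Rik, Gm3558 and Gm3667 was highest for Penk at 286 CPM (259 to 314), above the 239 CPM (223 to 256) of the cluster led by Il1r2, Bcl2a1d and Egr2, whose interval did not meet it. Nrn1 was highest there in the Il1r2-led cluster, at 79.5 CPM.

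Nrn1 stood at 74.8 CPM in the Il1r2 cluster (66.7 to 83.5), which held 36.5% of Nrn1 UMIs and 63 of the Nrn1-high cells. It was the highest cluster in 3 of 6 sets only. An unnamed cluster of 560 cells led by Dnah7a, Lta and Socs2 had 52.2 CPM (41.7 to 64.6), and the unnamed Dnah7a, Sh2d1a and Tbc1d4 cluster had 50.2 CPM (43.9 to 57.0). In the Ccl5 cluster Nrn1 was lower, 28.4 CPM, in the S100a4 cluster it ran from 14.7 to 20.5 CPM over the sets, and in resting Treg-like cells it was 11.2 CPM, from 7.94 to 13.6 CPM over the sets. The order of clusters thus differed between the genes. For Penk the Dnah7a, Lta and Socs2 cluster, at 39.9 CPM (30.8 to 50.9), lay below the Ccl5 cluster, and for Nrn1 it lay above it.

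**Figure D3:**
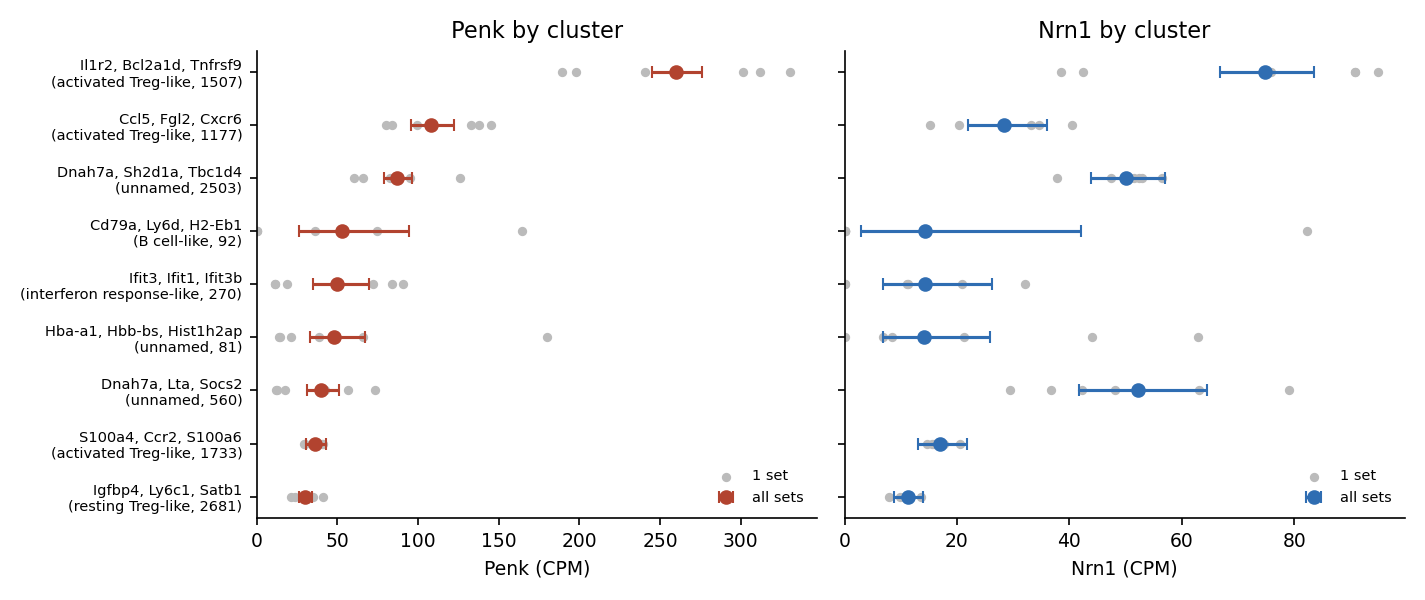
Penk (left) and Nrn1 (right) in CPM by cluster, named by its leading genes with the class and number of cells in brackets. Coloured circles with 95% Poisson intervals are all sets together and grey points single sets. The Il1r2 cluster is highest for both, at 260 CPM of Penk and 74.8 CPM of Nrn1.

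Over all sets Penk was found more often in Nrn1-high cells than in the other Treg cells, and most cells rich in one were not rich in the other. Of the 132 Nrn1-high cells 13 were Penk-high (9.85%, 5.35 to 16.2%), against 185 of the other 10422 Treg cells (1.78%, 1.53 to 2.05%), a ratio of 5.55 (2.90 to 9.72). Both limits are on unthinned UMIs, and Nrn1-high cells were deeper (median 2744.5 against 2086.5 UMIs), so this ratio is not matched for depth. By set the counts of such double cells were 4 of 31, 2 of 20, 1 of 16, 2 of 22, 0 of 12 and 4 of 31 Nrn1-high cells. Set 5 had none, with an exact interval that reaches 26.5%. Inside the Il1r2 cluster the ratio was 1.58, from 8 of 63 against 116 of 1444 cells, with shares of 12.7% (5.65 to 23.5%) and 8.03% (6.68 to 9.56%) whose intervals overlap.

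In cells thinned to 1000 UMIs, which removes differences in depth, 27 of 288 cells with a Nrn1 UMI also had a Penk UMI (9.38%), against 541 of 9960 without (5.43%). The ratio was 1.73 (1.13 to 2.54). It was above 1 in 5 sets, from 1.02 in set 1 to 2.66 in set 4, and 0.98 in set 5.

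The transcripts of Penk-high cells were then compared with those of the other 10356 Treg cells. Log2 ratios are relative to the median gene, which lay 0.12 higher in Penk-high cells on the plain CPM scale. A gene is counted as higher or lower when it was past 1.5-fold and on the same side of plain CPM in 6 of 6 sets. Of 5147 genes within the limits on low counts, 146 were higher (2.84%) and 95 lower (1.85%). The limit of 20 CPM had to be met in either group, and 24 of the 146 higher genes met it only in Penk-high cells and 14 of the 95 lower ones only in the others. Such a gene had to differ to enter, and its count supports nothing. The comparison was added after the data had been seen. Penk-high cells were deeper, with a median of 2665.5 against 2083 UMIs. With the same cells thinned to 1000 UMIs, 2345 genes were within the limits, and 26 of 74 higher and 28 of 37 lower genes were among those counted without thinning.

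Il1r2 had the highest ratio. It was at 284 CPM in Penk-high cells and 58.4 CPM in the others, a log2 ratio of 2.17 (1.93 to 2.39). Over the sets it ran from 149 to 647 CPM in Penk-high and from 46.1 to 71.5 CPM in other cells, without overlap. Lag3, an inhibitory receptor that binds MHC class II, was at 124 against 42.7 CPM (log2 ratio 1.44). Pdcd1, which encodes PD-1, was at 185 against 78.3 CPM (1.13), and Klrg1, an inhibitory receptor of differentiated lymphocytes, at 75.0 against 28.2 CPM (1.31). After thinning, 21.3% of Penk-high cells (15.8 to 27.7%) had a Pdcd1 UMI and 6.99% of the others.

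Further genes with the highest ratios had varied roles. Actg2, a smooth muscle actin, had a log2 ratio of 1.88, Pdzk1ip1 1.88 (1.26 without set 1), the DNA repair gene Mgmt 1.70, the chemokine gene Cxcl10 1.54, Rgs16, a brake on G protein signalling, 1.48, the stress gene Gadd45b 1.43 and the cytotoxic granule gene Nkg7 1.38. 6330403K07Rik (1.46), 2310015A10Rik (1.36) and the endosome gene Eea1 (1.32) completed the 12 highest, of which Actg2, Pdzk1ip1 and 6330403K07Rik were under 20 CPM in the other cells. Their sets did not always separate: for Mgmt, Penk-high cells had 41.1 to 272 CPM and the others 23.0 to 54.6 CPM.

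The lower genes included those of resting, recirculating T cells. Klf2, a factor that keeps T cells quiescent, was at 139 CPM against 530 CPM (log2 ratio −2.04, −2.37 to −1.75), and S1pr1, the receptor for leaving lymphoid organs, at 38.3 against 129 CPM (−1.84). Over the sets Klf2 ran from 0 to 204 CPM in Penk-high and from 511 to 548 CPM in other cells. Ly6c1 (−2.37), Ifngr2 (−2.11) and Cd7 (−2.02) had larger ratios on only 6, 3 and 5 UMIs in Penk-high cells, and the glucocorticoid-induced gene Tsc22d3 was at −1.68. Foxp3 was at 19.2 against 21.3 CPM (−0.21, −1.23 to 0.55) and Bach2 at 16.0 against 28.4 CPM (−0.88, −2.02 to −0.06). Bach2 was lower in 4 sets and higher in 2 and was not counted.

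Nrn1-high cells were compared with the other 10422 Treg cells in the same way. Since the reference cells are largely shared with the Penk comparison, the results are given side by side and their overlap is not used. Of 4341 genes within the limits, 92 were higher (2.12%) and 40 lower (0.921%), of which 0 and 9 met the CPM limit in 1 group only. Median depths were 2744.5 and 2086.5 UMIs, and the median gene lay 0.05 higher. With thinned cells 1553 genes were within the limits, and 9 of 34 higher and 3 of 12 lower genes were among those counted without thinning.

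Tnfrsf9 was at 268 CPM in Nrn1-high cells and 119 CPM in the others (log2 ratio 1.13, 0.84 to 1.39), with 215 to 328 CPM and 92.4 to 147 CPM over the sets, without overlap. Marcksl1, a regulator of the actin cytoskeleton, had the highest ratio, 106 against 31.5 CPM (1.71, 1.23 to 2.13). Tnfsf11, the ligand RANKL, followed at 122 against 43.3 CPM (1.46), and then Tagap (1.39), Mgmt (1.35), the inhibitory receptor gene Btla (1.24), Rilpl2 (1.17), the antigen receptor response gene Nr4a1 (1.15), Hmgn3 (1.14), Npepps (1.12), Cd40lg (1.11) and the kinase gene Prkca (1.08). Cd200, which encodes a surface ligand of an inhibitory receptor, was at 432 against 120 CPM (1.81, 1.58 to 2.02) but higher in only 5 sets, so it was not counted.

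The lower genes again included those of recirculating cells. Igfbp4 was at 16.4 against 74.3 CPM (log2 ratio −2.12, and −2.90 without set 2) and S1pr1 at 42.3 against 129 CPM (−1.61). Klhl6 (−1.50) had 12 UMIs in Nrn1-high cells. Kdm7a (−1.57), Ehd3 (−1.45, and −2.13 without set 6) and Plekhf2 (−1.37) had 4 or 5. Penk itself was at 275 against 86.1 CPM (1.63), higher in 5 sets. Bach2 was at 39.9 against 27.9 CPM (0.51, −0.32 to 1.16), an interval that includes 0.

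**Figure D4:**
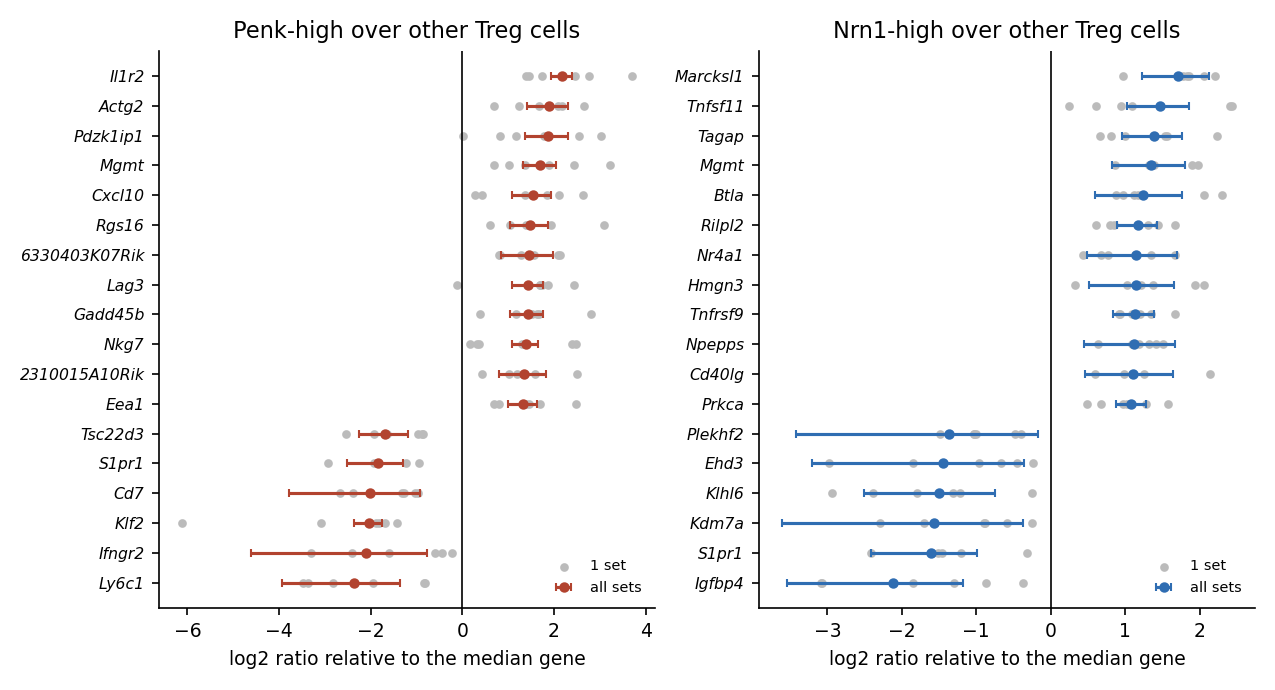
Log2 ratios, relative to the median gene, of the 12 highest and 6 lowest genes in Penk-high (left) and Nrn1-high (right) over other Treg cells. Coloured circles with 95% intervals are all sets together and grey points single sets, with the same median taken off. Il1r2 at 2.17 and Marcksl1 at 1.71 are the highest.

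The counts by gene list are to be read against the shares over all genes within the limits, 2.84% higher and 1.85% lower in Penk-high cells and 2.12% and 0.921% in Nrn1-high cells. They describe the lists and are not tests. The lists were chosen with earlier results of these data known. Penk is also a leading gene of the Il1r2 cluster, along with Tnfrsf9, Cd83, Egr2 and Bcl2a1b. High counts in lists that hold these genes therefore follow in part from how the genes were selected. Of 12 TNF receptor family genes within the limits, 6 were higher and 0 lower in Penk-high cells, with a median log2 ratio of 0.58 where all genes have 0 by construction. The higher members were Tnfrsf4 (OX40), Tnfrsf9, Tnfrsf18 (GITR), Tnfsf8, Tnfsf11 and Tnfsf14, the last within the limits only through Penk-high cells. Tnfrsf4 was at 1365 CPM in Penk-high and 635 CPM in other cells (0.99, 0.89 to 1.09). In Nrn1-high cells 4 of 11 were higher, namely Tnfrsf1b, Tnfrsf9, Cd40lg and Tnfsf11, with a median of 0.66.

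NF-kB pathway genes had 5 of 17 higher and 0 lower in Penk-high cells (median 0.42) and 5 of 16 higher and 0 lower in Nrn1-high cells (median 0.46). They included Bcl2a1b and Bcl2a1d, survival genes that are near-identical copies and whose separate counts are uncertain. Rel, an NF-kB subunit, was at 81.4 against 46.6 CPM in Penk-high cells (0.70). Of 14 antigen receptor response genes, Nr4a1 (1.32), Cd83 (1.06) and Tox (0.63) were higher in Penk-high cells, and Egr2 (1.17) was within the limits only through those cells. In Nrn1-high cells Nr4a1 and Tox were higher among 13.

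T cell anergy genes, a group in which Nrn1 itself has been placed, had 6 of 16 higher in Penk-high cells (Lag3, Pdcd1, Cd200, Tnfsf11, Egr2 and Bhlhe40) and 1 lower, Dgka. Without Egr2, which entered only through Penk-high cells, 5 were higher. In Nrn1-high cells 3 of 15 were higher (Btla, Tnfsf11 and Bhlhe40). Follicular and B-helper genes had 4 of 11 higher and 1 lower in Penk-high cells, the lower one being Id3 at 99.0 against 185 CPM. In Nrn1-high cells only Tox of 10 was higher.

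Resting and homing genes had 0 higher and 10 lower of 19 in Penk-high cells (Ly6c1 entered only through the other cells), with a median log2 ratio of −1.08, and 0 higher and 6 lower of 19 in Nrn1-high cells (Igfbp4 likewise), with a median of −0.51. Effector and motility genes were lower in part: in Penk-high cells S100a4, S100a6, Crip1 and Itgb7 were lower and Nkg7 was higher among 18. S100a4, a calcium-binding protein of motile cells, was at 62.2 against 182 CPM (−1.65). Interferon response genes had 3 lower of 18 in Penk-high cells (Rtp4, Ifi47 and Igtp), and 0 of 18 were counted in Nrn1-high cells.

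Of the AP-1 and BACH factors, the AP-1 partner Batf was higher in both, at 228 against 126 CPM in Penk-high (0.74) and 247 against 127 CPM in Nrn1-high cells (0.92). Inside the Il1r2 cluster Batf was not higher, at 299 against 323 CPM for Penk-high and 318 against 321 CPM for Nrn1-high cells. Jun was lower in Penk-high cells, at 73.4 against 121 CPM (−0.82). CREB and ATF factors, the family through which Penk is controlled in neurons, had 0 of 8 counted in either comparison. Treg identity genes had 2 of 16 higher in Penk-high cells (Tnfrsf18 and the TGF-β-activating integrin gene Itgb8, the latter within the limits only through Penk-high cells) and 0 of 13 counted in Nrn1-high cells. Tissue Treg genes had 2 of 9 higher in Penk-high cells, Klrg1 and Batf, and 2 of 8 in Nrn1-high cells, Batf and Ebi3.

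**Figure D5:**
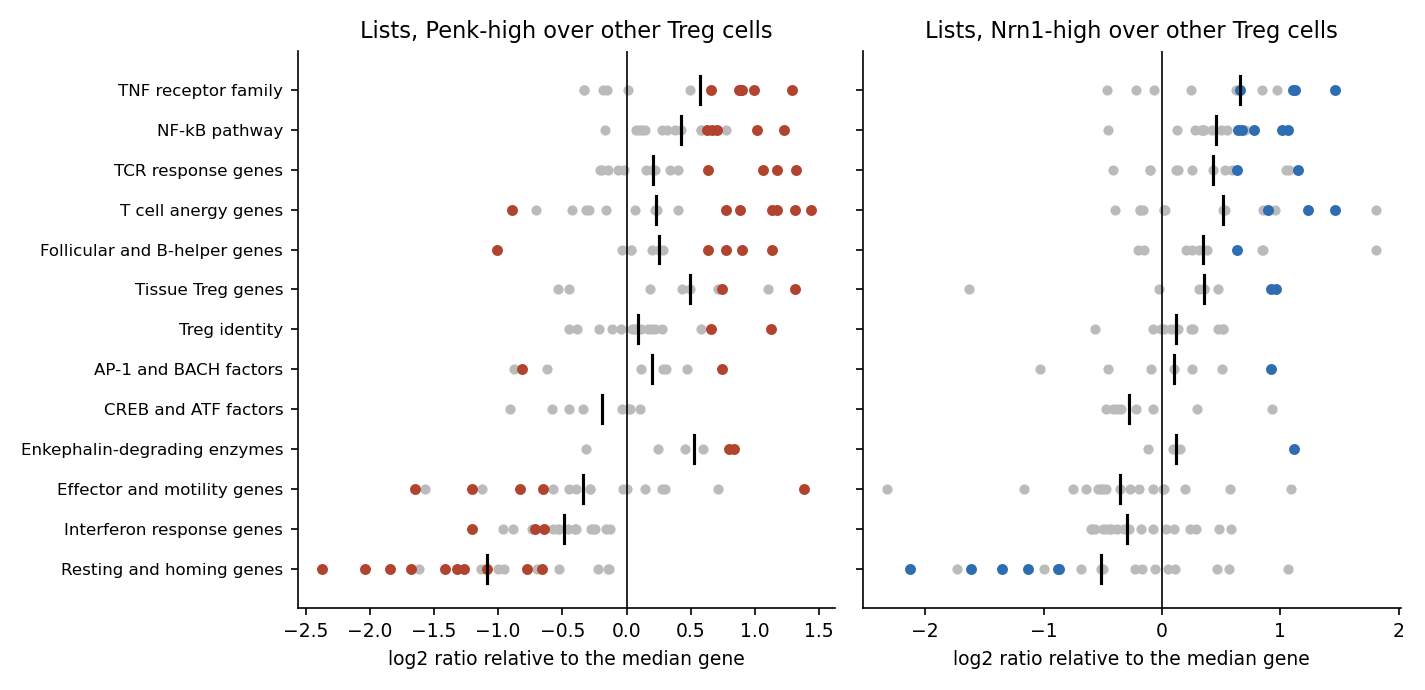
Log2 ratios, relative to the median gene, of the members of 13 gene lists within the limits on low counts, in Penk-high (left) and Nrn1-high (right) over other Treg cells. Coloured points are genes counted as higher or lower, grey points are the others, and black bars are list medians. Resting and homing genes have the lowest median on both sides, −1.08 and −0.51.

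Much of this contrast lay between clusters. With the comparison kept inside the Il1r2 cluster, 124 Penk-high cells against 1383 others, 42 genes were higher and 28 lower of 4217. Of these, 18 and 7 were among the genes counted over all Treg cells. Il1r2 kept a log2 ratio of 0.64, Nkg7 of 0.92 and Mgmt of 0.77, while Klf2 was at −0.06, Lag3 at −0.03, S1pr1 at 0.00 and Cxcl10 at −0.13. In plain CPM, Penk-high and other cells of the cluster had 306 and 325 of Cd83, 65.5 and 67.6 of Egr2, and 204 and 199 of Pdcd1. Tnfrsf4 was at 1737 and 1551 CPM, Tnfrsf9 at 427 and 372, Tnfsf11 at 110 and 89.8 and Nr4a1 at 96.9 and 72.5. For Nrn1-high cells inside the cluster (63 against 1444), 35 genes were higher and 16 lower of 2556, and 11 and 1 were shared. There Tnfsf11 was at 0.96, Hmgn3 at 0.69, Tagap at 0.86, Marcksl1 at 0.80 and Tnfrsf9 at 0.29. The clusters were drawn from these same genes.

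A direct comparison needs no shared reference cells. Penk-high cells without Nrn1-high status (185) were set against Nrn1-high cells without Penk-high status (119), and 52 of 4155 genes were higher on either side (1.25% each). In cells thinned to 1000 UMIs, 1513 genes were within the limits, and 1 of 16 higher on the Penk side and 3 of 16 higher on the Nrn1 side were among those counted without thinning, so single genes here are weakly supported. Cxcl10 was at 85.7 CPM in the Penk cells and 15.7 CPM in the Nrn1 cells (log2 ratio 2.32, 1.19 to 3.93). Tmem109 (1.97, and 3.08 without set 4), Wdr12 (1.59), Gadd45b (1.51), the stress kinase gene Map2k3 (1.46), Klrg1 (1.45, and 2.44 without set 1), the purine synthesis gene Gart (1.42) and Zfp36, which destabilises cytokine transcripts, (1.38) followed.

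On the Nrn1 side, Id3, an inhibitor of E proteins, was at 235 CPM against 103 CPM in the Penk cells (log2 ratio −1.22, −1.72 to −0.74). By set it was at 137 to 387 CPM in the Nrn1 cells and 75.0 to 124 CPM in the Penk cells, without overlap. Prkacb, a catalytic subunit of protein kinase A, was at 70.5 against 22.3 CPM (−1.67), Btla at 67.9 against 25.7 CPM (−1.42) and Cd40lg, the ligand of CD40 on B cells, at 62.7 against 25.7 CPM (−1.30). Rab1a (−1.29), Kbtbd11 (−1.24), Pds5a (−1.17) and Naa60 (−1.16) were also among the 8 largest, the last with an interval that includes 0. Tnfrsf9 and Batf, higher in both kinds of cell than in other Treg cells, were not among those counted here. Their set ranges overlapped, at 149 to 718 against 136 to 328 CPM for Tnfrsf9 and 201 to 310 against 160 to 334 CPM for Batf.

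The planned comparison by any UMI in thinned cells rested on fewer counts. Among 5073 genes, 93 were higher (1.83%) and 22 lower (0.434%) in 568 cells with a Penk UMI than in 9680 without. Il1r2 (log2 ratio 1.39), Rln3 (1.24), Tnfrsf9 (1.21), Nrn1 (1.19), Stx11 (1.12) and Pdcd1 (1.08) led, followed by Orai3, Gsap, Mapkapk2, Slc25a36, Nav2 and Aftph. Fam101b, Sept11, Cdpf1, Rcbtb2, Igfbp4 and Ifit1bl1 had the lowest ratios. Nrn1 was at 66.9 CPM against 29.8 CPM and higher in 6 of 6 sets. Rln3, the gene of the neuropeptide relaxin-3, was at 116 against 49.4 CPM. It ends 339 bases upstream of Il27ra on the same strand (chromosome 8, 84042929 to 84045000, minus strand), and the sources used here do not say how reads between these neighbours were counted.

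For Nrn1 by any UMI (288 against 9960 cells), 53 of 3308 genes were higher (1.6%) and 19 lower (0.574%). Mgmt led with 104 against 33.2 CPM (log2 ratio 1.67, 1.06 to 2.19), and Mrps18b, Plscr1, Mmd, Tvp23b, Mtf2, Tigit, Cd83, Lysmd2, Ppp1r16b, Lyrm2 and Prrc2b followed. Eno1b, Ifit1, Pydc4, Pdlim1, Rasgrp2 and Hsd11b1 were lowest, on 3 to 10 UMIs, and Ifit1 moved from −1.93 to −2.85 without set 3. The count of Eno1b is uncertain, since it is a near-identical copy of Eno1. With another draw of the thinning, 18 of the 93 higher genes for Penk and 7 of the 53 for Nrn1 were counted again, so single genes of these lists are weakly supported. Between 541 cells with Penk alone and 261 with Nrn1 alone, 33 of 3161 genes were higher (1.04%) and 38 lower (1.2%), and 1 of the 33 was counted again. Atg101, Smndc1, Mgat1, Syncrip, Phpt1, Pydc4, Akirin2 and Dph3 had the highest ratios, and Il6ra, Pam16, Lta, Dap3, Pcbd2, Lyrm2, Jtb and Vta1 the lowest.

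Genes for the machinery that turns proenkephalin into peptides were at low levels or had no row in the table. Of 15 genes for processing and dense-core granules, 8 had a row in the table and 0 were within the limits on low counts. Furin, a convertase of the Golgi, was at 14.7 CPM in Treg cells (13.3 to 16.3) and Pcsk7 at 9.78 CPM. Over all Treg cells Scg5 had 176 UMIs, Pam 162, Cpd 148 and Ctsl 102. Pcsk1, the convertase of neuroendocrine granules, had 5 UMIs over all Treg cells, and Cpe, which trims the cut peptides, had 68, of which 1 lay in Penk-high cells. Of the receptors, Oprm1, which encodes the μ-opioid receptor, had 30 UMIs, 0 of them in Penk-high cells. Ogfr, the receptor of a growth-inhibiting enkephalin, was at 62.2 CPM in Penk-high and 56.4 CPM in other cells (log2 ratio 0.04, −0.47 to 0.48).

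Among 6 enkephalin-degrading enzymes within the limits, the peptidase gene Dpp3 was higher in Penk-high cells (71.8 against 38.5 CPM, log2 ratio 0.80). Lnpep, at 30.3 against 16.1 CPM, was within them only through Penk-high cells. Npepps, an aminopeptidase, was the 1 of 4 that was higher in Nrn1-high cells, at 58.7 against 26.7 CPM (1.12). Of the other neuropeptide genes, Nmb was within the limits, at 43.5 CPM in Treg cells, with 52.7 against 43.2 CPM in Penk-high and other cells. Pomc, the precursor of β-endorphin, was at 4.95 CPM. Npy had 5 UMIs in all, in only 3 cells, and 4 of these UMIs lay in Penk-high cells. Nrn1l, the gene most like Nrn1, had 5 UMIs. Cnih1 and Cnih4, relatives of the AMPA receptor partners, were not counted in either comparison.

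Markers of other cell types moved with Penk in part, and their part in the result was not tested. The 9 B cell markers in the table summed to 528 CPM in Penk-high cells (396 to 688 over the sets) and 307 CPM in other Treg cells (274 to 376). Cd74 made up 437 and 224 CPM of these sums, and the defining markers Ms4a1 and Ebf1 were at 0 in Penk-high cells. The 7 CD8 and NK markers summed to 199 CPM (90.5 to 308) against 85.2 CPM (70.2 to 119), with Nkg7 at 180 CPM. Cd8b1 had 8 UMIs, Klrd1 3 and Klrb1c 1 in Penk-high cells, and Cd8a, Gzma and Eomes had 0 there and only 7, 32 and 24 UMIs over all Treg cells. The 12 myeloid markers were at 172 against 170 CPM (108 to 307 and 123 to 219 over the sets), with Csf1r, Tyrobp, Itgam, Lyz1, C1qa and Alox5ap at 0. The 18 dissociation stress genes summed to 3814 CPM (3601 to 3989) against 2969 CPM (2749 to 3103), ranges that did not overlap, with Gadd45b higher and Jun and Socs3 lower. Of the 15 within the limits on low counts, 8 had a log2 ratio above 0, with a median of 0.022. The sum therefore does not describe the list as a whole.

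In Nrn1-high cells the B cell markers summed to 392 against 311 CPM and the stress genes to 3224 against 2986 CPM, with overlapping ranges (252 to 519 and 282 to 383 CPM, then 2855 to 3796 and 2753 to 3123 CPM). Ms4a1 and Ebf1 were at 0. The CD8 and NK markers summed to 160 against 86.8 CPM (28.2 to 301 and 72.3 to 120 over the sets), with Cd8a, Klrd1, Gzma and Eomes at 0 and 6 UMIs of Cd8b1. The myeloid markers were at 141 against 170 CPM. The 7 erythroid markers were at 76.6 CPM in Penk-high and 54.0 CPM in Nrn1-high cells, with 0 to 139 and 0 to 387 CPM over the sets. In the other Treg cells, where the cluster led by Hba-a1 and Hbb-bs was kept, they differed widely between sets, from 5.15 to 3710 CPM.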

How the data were processed

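The submitters' processing notes name FastQC, cutadapt, HISAT2, Cell Ranger, Seurat and the mm10 build, but neither versions nor the step each tool served. The authors deposited a table of raw UMI counts per gene and cell, used here, and a table of natural log values for 10464 of the cells, which equal ln(1 + 10000 × count / cell total) and served to select cells in an alternative. Per the labels, no column names a sample. The members and gene lists were chosen with earlier results of these data known.

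Cells were clustered (scanpy 1.11.5, python-igraph 0.11.9, Leiden) and named from marker genes, and 10680 cells were kept. No doublet caller was run. Cells were thinned to 1000 UMIs (seed 1), leaving out 306 shallower Treg cells and 9 other cells. Intervals are exact Poisson (CPM), Clopper-Pearson (shares) and conditional binomial (ratios), at 95%, computed with scipy 1.17.1 on summed UMIs. Limits on low counts were at least 10 expected UMIs in the smaller group and 20 CPM in either group. For the ratio in 1 set, 0.5 UMIs were added to each count. At low counts this raises the smaller group more, so the direction by set leans towards higher in the carriers and high cells. Genes named were the 12 highest and 6 lowest ratios (8 and 8 between Penk and Nrn1 cells) with the same direction in 6 sets, and up to 4 members of each list, of which some are left out here. Klrg1 and Pdcd1 come from the lists. Depth was 507 to 22130 UMIs per cell. Scripts were tested on simulated data. The high-cell comparisons were added after seeing the data.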

Additional observations from a re-analysis of the deposited data

Results flagged for a closer look

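The Nrn1 level outside Nrn1-high cells was 25.85 CPM in set 4 and 17.1 to 19.3 CPM in the other sets. The gap to the nearest set was 0.748 of the whole range, above Dixon's 95% limit for 6 values. It was 1 of 10 quantities examined over the 6 sets, and chance alone passes this limit in about 1 of 20. All UMIs behind this level come from cells with a single Nrn1 UMI. These numbered 105 in set 4 and 67 to 82 in each of the other sets, which restates the level and is no further observation.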

How the results depend on the processing

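No paired analysis was possible because the cell columns carry no replicate number. Limits: without a map from sets to samples nothing is replicated, most Treg cells hold 0 or 1 UMI of either gene, and lists from small groups of cells shift with the draw. The cause of the shifts below was not tested, except that fewer cells, a higher fold limit and fewer UMIs admit or count fewer genes, and that agreement in 5 sets is easier to reach than in 6.

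The share of Treg cells with a Penk UMI was 3.36% at 500 UMIs and 9.83% without thinning, and with a Nrn1 UMI 1.47% and 5.82%. The highest cluster held 192 CPM of Penk and 88.4 CPM of Nrn1 at resolution 0.5 (led by Nfkbid, Egr2 and Il1r2) and 286 CPM of Penk at 1.2, there in an unnamed cluster led by D830030K20Rik, Gm3558 and Gm3667 and not in that led by Il1r2. Co-detection was 2.75 at 500 UMIs, and between high cells inside the Il1r2 cluster 1.58 instead of 5.55. Leaving out 1 set gave 1.47 to 1.96 and 5.16 to 5.95.

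For Penk by any UMI, 93 higher and 22 lower genes became 55 higher at 500 UMIs, 44 and 5 without thinning, and 12 and 11 at 2-fold. For Nrn1, 53 and 19 became 12 and 8 at 500 UMIs, 3 and 7 at 2-fold, and 11 and 6 with at least 2 UMIs. Between Penk alone and Nrn1 alone, 33 and 38 became 13 and 11 at 500 UMIs and 16 and 8 at 2-fold. For Penk-high cells, 146 and 95 became 74 and 37 in thinned cells and 42 and 28 inside the Il1r2 cluster. For Nrn1-high cells, 92 and 40 became 34 and 12 in thinned cells, 35 and 16 inside the cluster, and 37 higher with at least 3 UMIs. Between high cells, 52 and 52 became 16 and 16 in thinned cells, 24 and 32 inside the cluster, and 33 lower without cells of other types and the deepest cells. Leaving out 1 set gave 39 to 49 lower genes for Penk and 24 to 41 for Nrn1 by any UMI, 46 to 54 higher and 40 to 58 lower between Penk alone and Nrn1 alone, 53 to 70 lower for Nrn1-high cells (63 without set 3 and 70 without set 5), and 69 to 87 higher and 73 to 96 lower between high cells.

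These log2 ratios changed sign. At 500 UMIs Orai3 was at −0.23 and Sept11 at 0.00077 for Penk, Lysmd2 at −0.82 and Pdlim1 at 0.22 for Nrn1, and Atg101 at −0.98 between Penk alone and Nrn1 alone. Without thinning, Lyrm2 was at −0.030 for Nrn1 and at 0.29 between the carriers, and Dap3 at 0.048. With another seed, Smndc1 was at −0.016 and Dap3 at 0.0090. With at least 2 Nrn1 UMIs, Mtf2 was at −1.48, Lyrm2 at −0.0079 and Ifit1 at 0.044. Inside the Il1r2 cluster, Cxcl10 was at −0.13, Lag3 at −0.035 and S1pr1 at 0.0048 for Penk-high and Igfbp4 at 0.11 for Nrn1-high cells. In thinned cells Kdm7a was at 0.025 for Nrn1-high cells and Gart at −0.0084 between high cells.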
